A study of Sus scrofa with 24 samples.

Results

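PSMA4 and 6 other genes for constitutive subunits of the proteasome, PSMA5, PSMB5, PSMB6, PSMC2, PSMC3 and PSMC6, were followed in the oxyntic mucosa, the acid-secreting lining of the stomach, of 24 piglets. They were found by gene symbol in the annotation of the array and make up 7 of the 10912 genes with a usable transcript cluster, which is a group of probes that reads 1 transcript. Of the 7, PSMA5 was read by 2 clusters and every other gene by 1, so that 8 clusters are described. The members had been picked because they were low in piglets with complex microbiota, over both diets together or on the control diet alone, with PSMA4 in the lead. Which comparison brought in PSMC3 is not recorded. Differences between the microbiota groups are therefore given for these genes as values with their standard errors (SE) and with no test, and so are the diet differences within each association and the difference of differences.

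The piglets were caesarean-derived (Great York × Pietrain) × 'Dalland' crosses, artificially fed and 3 weeks old. All of them took pasteurized colostrum at birth and, in the following days, a starter of 3 bacteria. They then received either a placebo (SA, simple association) or diluted feces of an adult sow (CA, complex association), and were fed a control diet (CON) or the same diet with coconut oil in place of soy and palm oil, a source of medium chain triglycerides (MCT), which gave 6 piglets in each of CA CON, CA MCT, SA CON and SA MCT. The sample labels give a separate room for each association, in which case room and association cannot be told apart. The paper's methods are less clear on this, placing 3 piglets of each group in a pen or room. Litter and pen of each piglet are not given in the sources used here.

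The proteasome is the barrel-shaped protease that breaks down proteins marked with ubiquitin in the cytosol and nucleus of every cell. Its 20S core consists of outer rings of alpha subunits, which form the gate, and inner rings of beta subunits, some of which carry the cutting sites. The 19S cap, with a ring of ATPases at its base, binds the substrate, unfolds it and feeds it into the core. Cells exposed to interferon swap the catalytic beta subunits for inducible ones and so form the immunoproteasome. The roles given here for single genes are those known from human, mouse or yeast.

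Values are log2 of the deposited array intensity, so that a difference of 1 is a doubling. Parietal cell genes were bright on every array, the proton pump subunits ATP4A and ATP4B lying between 11.56 and 11.92 and between 11.19 and 11.52. The arrays of pigs 4, 10 and 22 stood apart: their median correlation with the other arrays was 0.946, 0.975 and 0.981, against 0.987 to 0.992 for the remaining 21. These 3 arrays belong to CA CON, CA MCT and SA MCT, and the main values that turn on them are given without them too. No label ties piglets to a hybridization batch.

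Across the microbiota comparison all 7 genes had a lower mean in CA than in SA, over both diets and on each diet taken alone. The differences ran from -0.23 (PSMA4) to -0.07 (PSMC3) over both diets, with a median of -0.12. On CON the median was -0.14 and on MCT -0.13. Without pigs 4, 10 and 22 the median on MCT was -0.08, with 6 of 7 lower, PSMC6 standing at 0.0025. With quantile normalization repeated, the median over both diets was -0.09, and 6 of 7 were lower on CON and on MCT. With array weights that median was also -0.09. Averaging the clusters of a gene left 6 of 7 lower, over both diets and on each. Of all 10912 genes, 50.5% were lower in CA over both diets, 50.1% on CON and 51.9% on MCT. Among the 7252 genes left without the dimmest 40% of clusters, which include all 7 members, the shares were 62.6%, 61% and 58.7%. Nothing is read from the count of 7 beside these shares, since the direction chose the genes. In tissue RNA, fewer cells of a type and less RNA per cell cannot be told apart. No gene of the array passed an adjusted p of 0.05 in limma in any of the 7 comparisons made (0% of 10912 each), the lowest adjusted p being 0.298 for CA against SA over both diets.

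**Figure D1:**
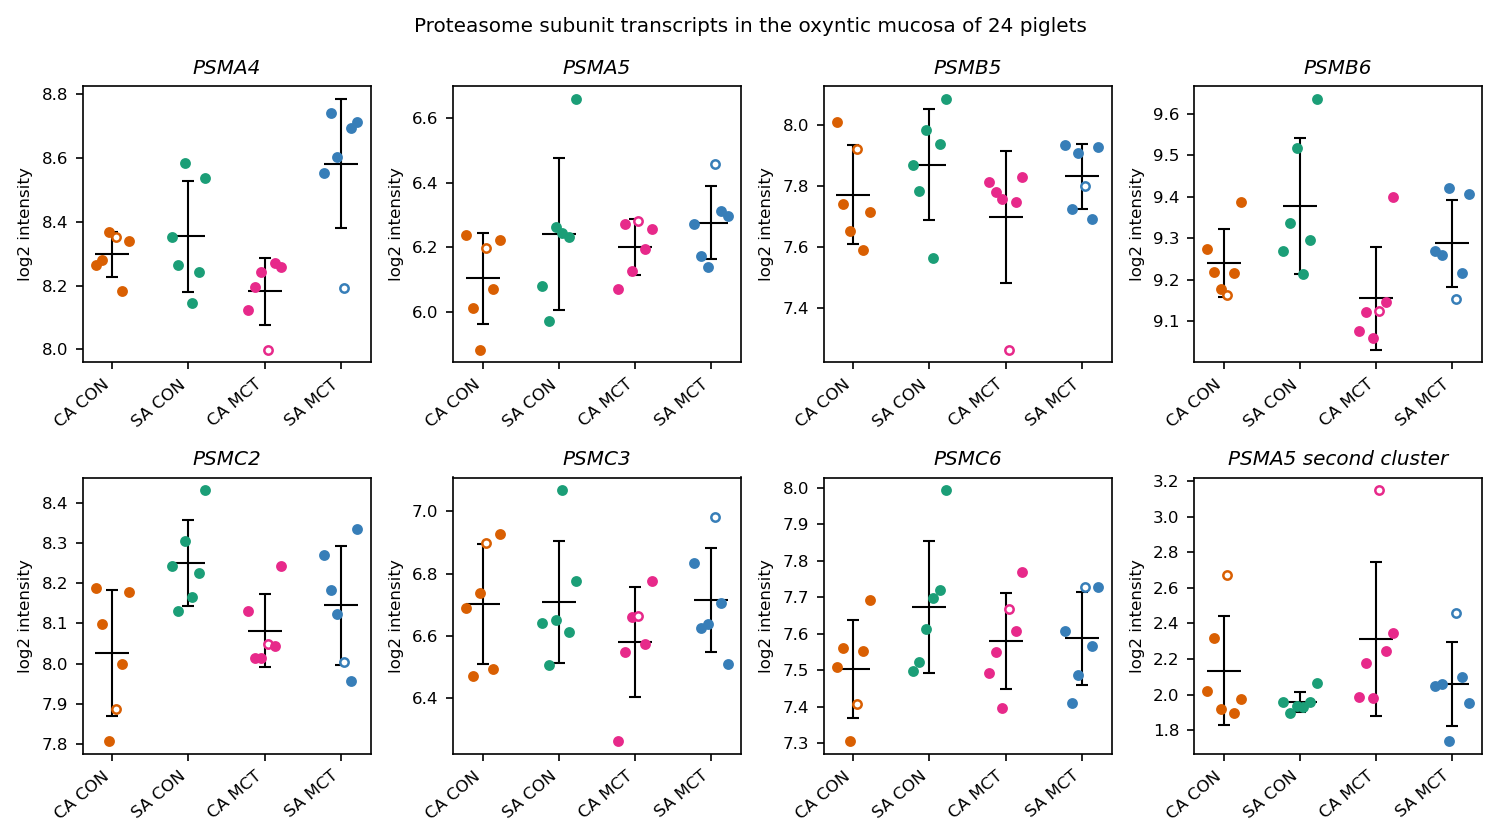
Log2 intensity of the 7 subunit genes, and of the second PSMA5 cluster, in each of 24 piglets. Points are piglets, with open points for pigs 4, 10 and 22, whose arrays stood apart; bars give the mean and SD of 6 piglets. The y axes differ in range. In PSMA4, 5 of the 6 SA MCT piglets lie above all CA MCT piglets, in PSMB6 5 of the 6 CA MCT piglets lie below all SA MCT piglets, and in no panel are CA and SA fully apart on either diet.

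PSMA4 codes for an alpha ring subunit of the core. It lay between 8.18 and 8.37 in CA CON, with a median of 8.31, and between 8.15 and 8.58 in SA CON, with a median of 8.31. On MCT it lay between 8.00 and 8.27 in CA (median 8.22) and between 8.19 and 8.74 in SA (median 8.65). On CON the groups overlapped over nearly their whole range, with only 2 SA piglets above every CA piglet. On MCT, 5 of 6 SA piglets were above every CA piglet, and the exception was pig 22, whose value was below 4 of the 6 CA MCT piglets. The difference of CA minus SA was -0.06 ± 0.090 (SE) on CON and -0.40 ± 0.090 on MCT, which is a level 0.758 of that in SA MCT. The order of the group means was SA MCT (8.58), SA CON (8.35), CA CON (8.30) and CA MCT (8.18), and each of the last 3 was nearer to the next than the SD within SA CON (0.17).

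By value, the diet differences of PSMA4 had opposite signs in the 2 associations, and neither was tested. MCT minus CON was 0.23 ± 0.090 in SA and -0.12 ± 0.090 in CA, the latter not much larger than its SE. The difference of these differences was -0.34 ± 0.13. Without pigs 4, 10 and 22 the diet differences were 0.31 in SA and -0.07 in CA. The overlap on MCT came from pig 22 alone. Without it the MCT difference was -0.48 and the groups no longer overlapped. Nothing is read from this separation, since both the gene and the piglet were picked by their values. The share of all genes that come apart in this way was not counted.

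PSMA5, another alpha ring subunit, was less spread between groups. It lay between 5.88 and 6.24 in CA CON (median 6.14) and between 5.97 and 6.66 in SA CON (median 6.24). On the MCT diet the range was 6.07 to 6.28 in CA (median 6.23) and 6.14 to 6.46 in SA (median 6.28). The groups overlapped on both diets, and the highest value of all came from pig 18 in SA CON. CA minus SA was -0.14 ± 0.092 on CON and -0.07 ± 0.092 on MCT, and leaving out pig 18 took the CON difference to -0.05.

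The second PSMA5 cluster was at the dim end of the array, with group medians of 3.86 to 4.64 in intensity units, and carries no gene number in the platform annotation. On the log2 scale it was higher in CA than in SA by 0.22 ± 0.11 over both diets, opposite in sign to the bright cluster. In CA CON its highest piglet was pig 4 (2.67), in CA MCT pig 10 (3.15) and in SA MCT pig 22 (2.46). These are the 3 arrays that stood apart; their part in this difference was not tested. When both clusters of the gene were averaged, PSMA5 was 0.05 higher in CA over both diets, so that its direction rests on the bright cluster.

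PSMB5 and PSMB6 code for catalytic subunits of the beta ring: PSMB5 carries the chymotrypsin-like and PSMB6 the caspase-like cutting site. PSMB5 lay between 7.59 and 8.01 in CA CON (median 7.73) and between 7.56 and 8.09 in SA CON (median 7.90). On MCT it lay between 7.26 and 7.83 in CA (median 7.77) and between 7.69 and 7.93 in SA (median 7.85). The groups overlapped on both diets, and the lowest value of all, far under the rest of its group, was that of pig 10 in CA MCT. The difference of CA minus SA was -0.10 ± 0.10 on CON and -0.13 ± 0.10 on MCT. Without pig 10 the MCT difference was -0.05, and that over both diets moved from -0.12 to -0.07.

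PSMB6 was the member with the smallest spread within groups, 0.12 (SD). It lay between 9.16 and 9.39 in CA CON (median 9.22) and between 9.21 and 9.64 in SA CON (median 9.32). Among piglets fed MCT it lay between 9.06 and 9.40 in CA (median 9.12) and between 9.15 and 9.42 in SA (median 9.27). On MCT 5 of 6 CA piglets were below every SA piglet, and the exception, pig 12, was within the upper range of SA. The difference of CA minus SA was nearly the same on both diets, -0.14 ± 0.079 on CON and -0.13 ± 0.079 on MCT.

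PSMC2, PSMC3 and PSMC6 code for ATPases of the ring at the base of the 19S cap. PSMC2 lay between 7.81 and 8.19 in CA CON (median 8.05) and between 8.13 and 8.43 in SA CON (median 8.23). On MCT it lay between 8.01 and 8.24 in CA (median 8.05) and between 7.96 and 8.33 in SA (median 8.15). On CON 4 CA piglets were below every SA piglet and 4 SA piglets above every CA piglet, the widest separation of the 7 genes on that diet, while on MCT the range of SA enclosed that of CA. For CA minus SA this gave -0.22 ± 0.081 on CON and -0.06 ± 0.081 on MCT.

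PSMC3 had the smallest difference over both diets and the largest spread within groups, 0.18 (SD). It lay between 6.47 and 6.93 in CA CON (median 6.71) and between 6.51 and 7.07 in SA CON (median 6.64). With MCT, values lay between 6.26 and 6.78 in CA (median 6.62) and between 6.51 and 6.98 in SA (median 6.67). The groups overlapped on both diets, and on CON the CA median was above the SA median although the mean was lower. The difference of CA minus SA was -0.01 ± 0.11 on CON and -0.14 ± 0.11 on MCT, and without pig 16, the highest SA CON piglet, the CON difference was 0.07; leaving out any 1 of 4 piglets turned its sign.

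PSMC6 lay between 7.31 and 7.69 in CA CON (median 7.53) and between 7.50 and 7.99 in SA CON (median 7.66). On MCT it lay between 7.40 and 7.77 in CA (median 7.58) and between 7.41 and 7.73 in SA (median 7.59). The MCT groups overlapped almost wholly, while on CON 3 SA piglets were above every CA piglet. CA minus SA was -0.17 ± 0.088 on CON and -0.01 ± 0.088 on MCT, and the latter turned its sign when any 1 of 4 piglets was left out (0.03 without pig 9).

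By value, PSMA4 and PSMC3 had the larger microbiota difference on MCT and PSMC2 and PSMC6 on CON, while PSMB6 had about equal values on both. The difference of differences was -0.34 ± 0.13 for PSMA4 and -0.13 ± 0.15 for PSMC3, against 0.16 ± 0.11 for PSMC2 and 0.16 ± 0.13 for PSMC6. No test goes with these values, because differences used in choosing the genes enter them. PSMA5 was at 0.06 ± 0.13 and turned to -0.02 without pig 18. PSMC3 was at -0.05 without pigs 4, 10 and 22, PSMC2 at 0.07 with array weights and PSMC6 at 0.10 without pig 18. PSMC2, PSMC3 and PSMC6 kept their sign in every setting, but no main value of theirs was much larger than its SE. For these 4 genes no order between the diets is read. PSMA4 was at -0.37 without pigs 4, 10 and 22. Its order between the diets was not tested either.

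**Figure D2:**
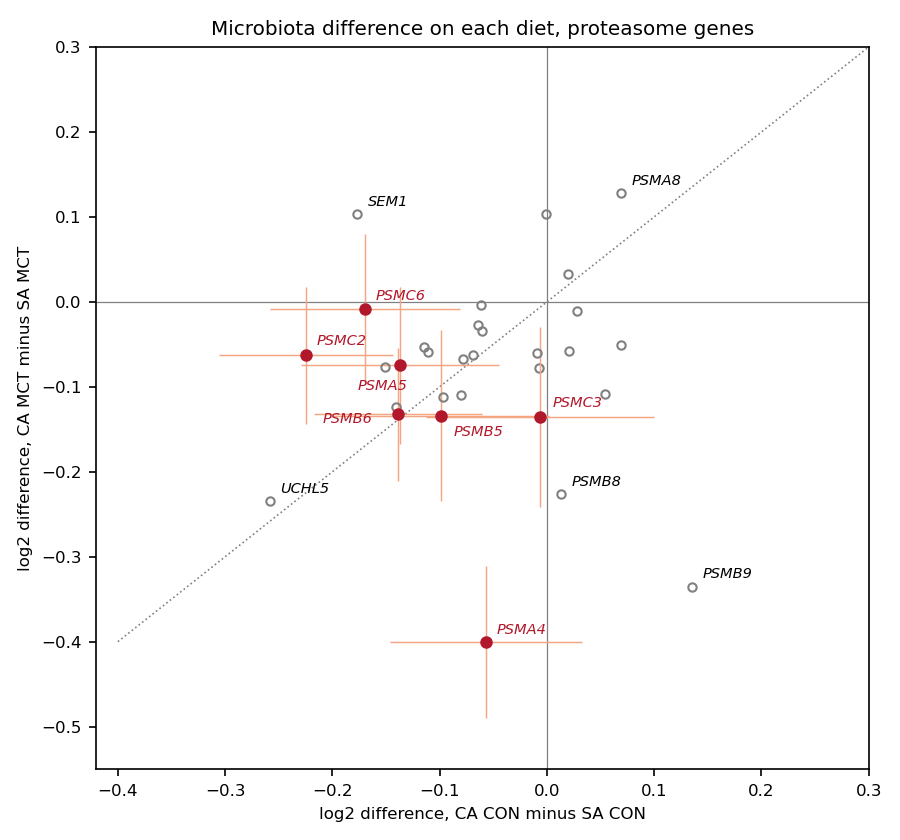
Log2 difference of CA minus SA on CON (x axis) and on MCT (y axis) for the 31 proteasome genes measured; filled points with SE bars are the 7 chosen subunits, open points the 24 others, and the dotted line marks equal differences. The 7 lie left of and below 0, with PSMA4 lowest on MCT (-0.40) and PSMC2 furthest left among them on CON (-0.22).

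As far as recorded, diet over both associations was not used in choosing the genes, and here the members were tested. For PSMC3 the comparison used is unknown. MCT minus CON was negative in 5 of the 7, beside 48.9% of all genes and 44.1% of those left without the dimmest clusters. It ran from -0.09 ± 0.056 for PSMB6 to 0.07 ± 0.065 for PSMA5. PSMA4 was at 0.06 ± 0.063, PSMC2 at -0.02 ± 0.057 and PSMC6 at -0.01 ± 0.063. None passed in limma, all adjusted p being about 1, and none passed before adjustment either. PSMB5, at -0.06 ± 0.071, turned to 0.0048 without pigs 4, 10 and 22. Of the 24 other proteasome genes described further on, 16 were negative over diet with a median of -0.02, and none passed the adjusted p. Their lowest values by the moderated statistic were those of UCHL5 (-0.09 ± 0.070), PSMC1 (-0.09 ± 0.070) and PSMC5 (-0.04 ± 0.045), and their highest those of PSME1 (0.06 ± 0.047), PSMB8 (0.13 ± 0.091) and PSMB9 (0.19 ± 0.11).

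The microbiota differences of the members were spread over the piglets unevenly. The mean deviation of a piglet's 7 values from the gene means over all piglets lay between -0.15 and 0.07 in CA CON, -0.15 and 0.07 in CA MCT, -0.07 and 0.30 in SA CON and 0.02 and 0.13 in SA MCT. The ranges overlapped between associations on both diets. In SA MCT every piglet was above 0, while in SA CON the highest value, 0.30, came from pig 18, which was the highest of its group in 5 of the 7 genes. Without pig 18 the median difference of the 7 genes on CON was -0.06 in place of -0.14, with 6 of 7 lower in CA. In CA MCT pig 12 was highest in 5 of the 7. Leaving out pig 7 took the median on MCT to -0.07 with 6 of 7 lower.

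**Figure D3:**
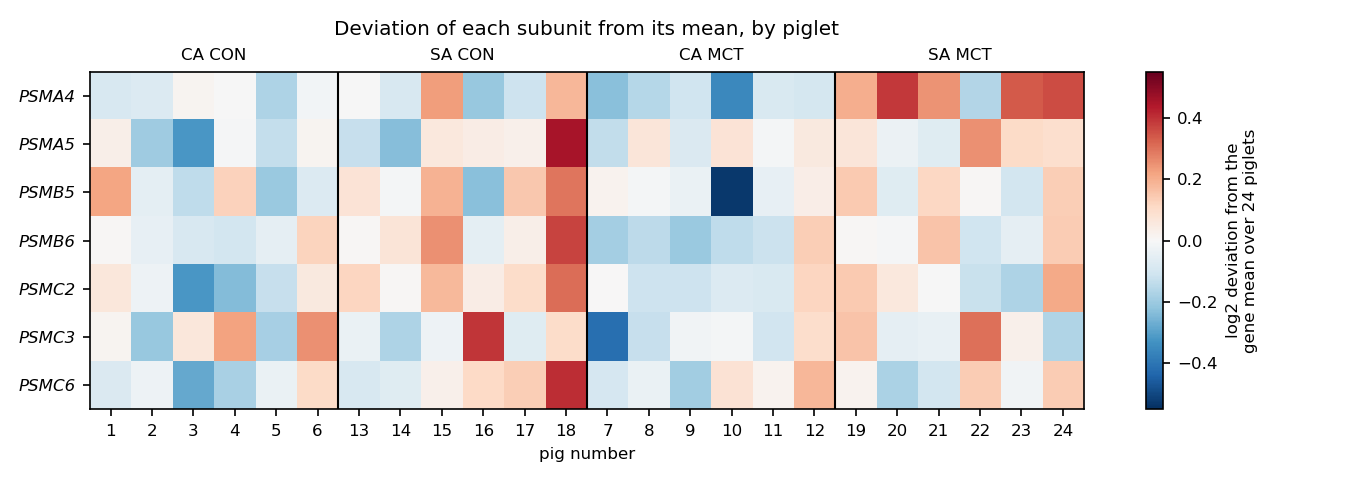
Deviation of each of the 7 subunit genes from its mean over 24 piglets, on the log2 scale, with piglets (columns) ordered by group; red is above and blue below the mean. Pig 18 in SA CON is above the mean in all 7 genes, and the PSMA4 row is above it in 5 of the 6 SA MCT piglets.

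Within groups, that is, after each group's mean was subtracted, the 21 pairs of members had Pearson correlations of -0.23 to 0.79 over 24 piglets, with a median of 0.38, and 16 were positive. These points share arrays and their overall quality, and the values are a description. The closest pair was PSMA5 with PSMC6 (0.79), followed by PSMB6 with PSMC2 (0.71). PSMA4 went with PSMB6 (0.57) but hardly with PSMA5 (0.02), PSMC6 (-0.10) or PSMC3 (-0.23). Without pigs 4, 10 and 22 PSMA4 was at 0.58 with PSMB6, 0.32 with PSMA5, 0.11 with PSMC6 and -0.01 with PSMC3. PSMC3 was the least tied to the other members, its median correlation with them being -0.07. Without pigs 4, 10 and 22 its correlations with them lay between -0.16 (PSMB5) and 0.40 (PSMA5). With the 9 measured core and cap subunits that were not members, the median for PSMC3 was 0.42. There PSMA4 had the lowest median of the members, 0.13.

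**Figure D4:**
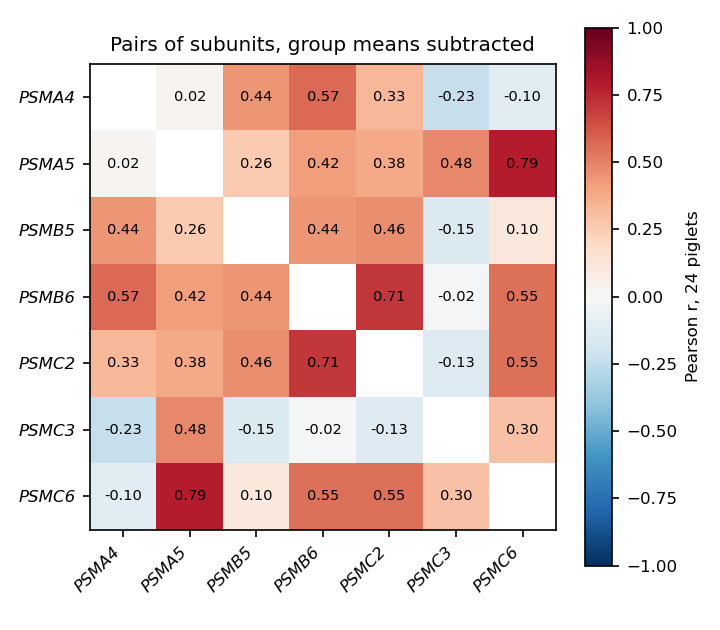
Pearson correlation of each pair of the 7 subunit genes over 24 piglets after subtraction of the group means. PSMA5 with PSMC6 (0.79) and PSMB6 with PSMC2 (0.71) are the closest pairs, and PSMA4 with PSMC3 (-0.23) is the lowest. Without pigs 4, 10 and 22, PSMA4 with PSMC3 was at -0.01.

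Among all 10912 genes, those closest to PSMA4 over the 24 piglets were TFG (0.73), which acts in transport out of the endoplasmic reticulum, CCNYL1 (0.71), a cyclin Y-like gene, and SPRTN (0.70), a protease for proteins crosslinked to DNA. PSMB6, at 0.55, was the closest member, at place 121 of that order. For PSMA5 the closest were CCNC (0.81), a cyclin of the Mediator complex, PSMC6 (0.78) and PSMA6 (0.78), a further alpha subunit. With group means subtracted, PSMA6 was at 0.86 with PSMA5, CCNC at 0.82 and PSMC6 at 0.79. PSMC2 was closest to NIFK (0.81) and to EIF2S1 (0.79), a subunit of translation initiation factor 2. PSMB6 was closest to GALNT1 (0.83), VDAC2 (0.82) and EIF4E (0.77), the cap-binding factor of translation. PSMB5 was closest to SNUPN (0.79), PSMC3 to MRPL58 (0.65) and PSMC6 to a gene without an official name, LOC100514709 (0.83), and to RAB21 (0.82). Without pigs 4, 10 and 22 SNUPN was at 0.60 with PSMB5. PPP6C, at 0.78 with PSMB5 over all piglets, was then at 0.81. The first 3 genes of each member thus held other proteasome genes for PSMA5 only.

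The other genes of the proteasome were listed by their role, but with earlier results of these data known, and were tested. They are what remained after the members, picked as low in CA, were taken out. Their counts are therefore no independent check. Of 57 genes listed for the proteasome and its helpers, 31 had a usable cluster, and 24 of these were not members; of 34 subunits of the core and cap, 16 were measured, 9 of them not members. Over both diets 19 of the 24 were lower in CA, with a median of -0.05. Among the 7252 genes left without the dimmest clusters, 62.6% were lower in CA, with a median of -0.02, and 18 of the 22 other proteasome genes in that set were lower. On CON 16 of 24 were lower (median -0.06) and on MCT 20 of 24 (median -0.06). Of the genes left without the dimmest clusters, 61% were lower on CON (median -0.03) and 58.7% on MCT (median -0.02). The 22 other proteasome genes in that set were lower in 16 cases on CON and 19 on MCT. None of the 24 passed the adjusted p in limma, the lowest being 0.944 over both diets, 0.943 on CON and about 1 on MCT. At an unadjusted p under 0.05, 1 of 24 was lower over both diets (2.36% of all genes), 1 on CON (2.34%) and 2 on MCT (1.36%). These were UCHL5 in all 3 comparisons and, on MCT, also PSMB9.

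The 9 other core and cap subunits gave smaller values than most members, which had been picked for theirs. In the alpha ring PSMA3 was at -0.09 ± 0.067 and PSMA6 at -0.05 ± 0.064 over both diets. In the beta ring PSMB7, which carries the trypsin-like site, was at -0.04 ± 0.046 and the non-catalytic PSMB4 at -0.03 ± 0.051. None of these exceeded its error by much. The ATPases PSMC1 and PSMC5 were at -0.08 ± 0.070 and -0.05 ± 0.045, the lid subunit PSMD13 was at 0.03 ± 0.065 and SEM1, a small lid subunit, at -0.04 ± 0.11. PSMA8, a testis form of an alpha subunit, was at the dim end of the array, with group medians of 4.33 to 4.57 in intensity units. Its highest piglets in CA CON, CA MCT and SA MCT were pigs 4, 10 and 22, and no direction is read from its value of 0.10 ± 0.070. In all, 7 of the 9 were lower in CA over both diets, 7 on CON and 6 on MCT, beside 62.6%, 61% and 58.7% of the genes without the dimmest clusters. The dim PSMA8 is counted among the 9 but is not part of that filtered set.

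**Figure D5:**
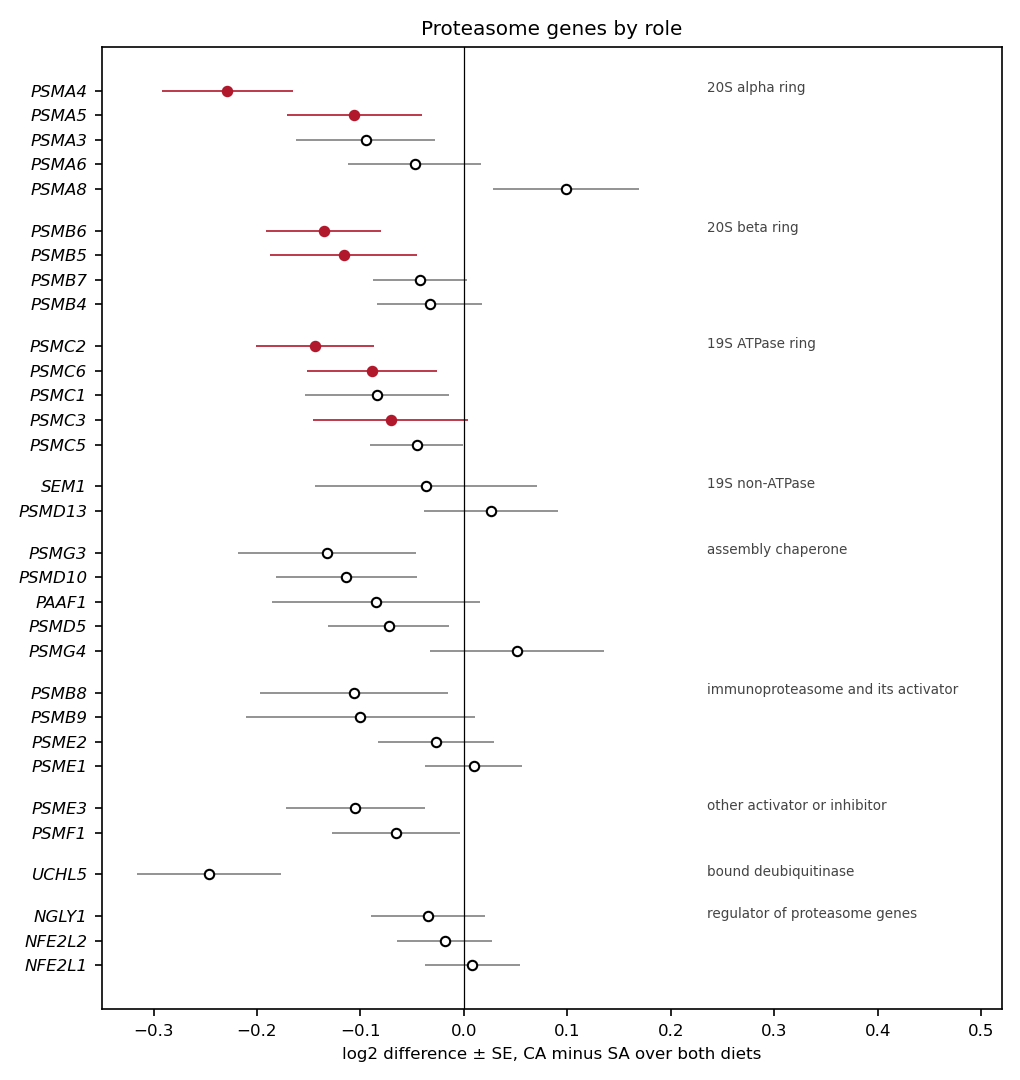
Log2 difference of CA minus SA over both diets with its SE for the 31 proteasome genes measured, grouped by role; filled points are the 7 chosen subunits, open points the 24 others. UCHL5 (-0.25) and PSMA4 (-0.23) are lowest and the highest point, PSMA8 (0.10), is from a dim cluster.

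The lowest of the 24 was UCHL5, a deubiquitinase that binds the cap and trims ubiquitin from substrates. Its difference was -0.25 ± 0.070 over both diets, with an unadjusted p of 0.0016 and an adjusted p of 0.944 in limma, and its second cluster gave -0.22 ± 0.076. On CON it was at -0.26 ± 0.098 and on MCT at -0.23 ± 0.098, so that its values on the 2 diets were alike, unlike those of PSMA4. PSMD10, an assembly chaperone of the cap, was at -0.11 ± 0.068, and PSME3, a nuclear activator of the core, at -0.10 ± 0.067. At the other end PSMG4, an assembly chaperone of the core, was at 0.05 ± 0.084.

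The immunoproteasome genes PSMB8 and PSMB9, inducible catalytic subunits, and PSME1 and PSME2, subunits of the interferon-inducible activator, all had a difference above 0 on CON and below 0 on MCT in their brightest cluster, and none passed the adjusted p in limma. PSMB9 was at 0.14 ± 0.16 on CON and -0.34 ± 0.16 on MCT, and PSMB8 at 0.01 ± 0.13 and -0.23 ± 0.13. PSMB8 was dim, with group medians of 9.54 to 12.1 in intensity units, and is among the clusters that the filter on dim ones leaves out. The second PSMB9 cluster was at -0.01 ± 0.19 on CON and -0.35 ± 0.19 on MCT. The difference of differences was -0.47 ± 0.22 for PSMB9, larger in size than that of PSMA4, and its adjusted p in limma was about 1, so that it was not distinguishable from 0 after adjustment. On SA, MCT minus CON was 0.42 ± 0.16 for PSMB9 (second cluster 0.19 ± 0.19) and 0.25 ± 0.13 for PSMB8, beside 0.23 ± 0.090 for PSMA4. The constitutive PSMB6, which PSMB9 replaces, was at -0.09 ± 0.079 in the same comparison, and PSMB5, which PSMB8 replaces, at -0.04 ± 0.10.

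NFE2L1, the transcription factor that raises proteasome genes when the proteasome is impaired, was at 0.01 over both diets, NFE2L2, which acts on several of them under oxidative stress, at -0.02, and NGLY1, which processes NFE2L1, at -0.03. None passed the test. A second NFE2L2 cluster was at -0.09 ± 0.055.

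Markers of other cell types were read on the same arrays. Over both diets 62.6% of the genes left without the dimmest clusters were lower in CA. All 7 measured fibroblast genes were higher in CA, by a median of 0.12, and 2 of them had an unadjusted p under 0.05 in limma. So did 1 proliferation gene, and no gene of the other lists. The mean deviation of the fibroblast list lay between -0.12 and 0.14 in CA CON and -0.07 and 0.23 in CA MCT. It lay between -0.41 and 0.14 in SA CON and -0.12 and 0.02 in SA MCT. All 3 smooth muscle genes were lower in CA (median -0.11), and all 3 chief cell genes (median -0.06). The 6 parietal genes were split, 3 lower and 3 higher, with a median of 0.00. All 3 surface mucous genes were higher in CA (median 0.04), the 6 endocrine genes were 4 higher and 2 lower (median 0.05), and of 3 proliferation genes 2 were lower (median -0.04). The 9 lymphocyte and leukocyte genes had a median of 0.14 on CON and -0.14 on MCT. No marker passed the adjusted p in limma and none was at 0, and the part of these cells in the differences of the 7 subunits was not tested.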

How the data were processed

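RNA of the oxyntic mucosa of 24 piglets was hybridized by the authors to Affymetrix Porcine Gene 1.1 ST arrays, 1 array a piglet, and summarised by Robust Multichip Analysis. The deposited table holds these values as linear intensity, 27558 transcript clusters by 24 arrays, and log2 was taken here, although log2 values had been assumed when the tests were set. The precision is limited by the number of arrays. Clusters with 1 gene symbol in the platform annotation (11982; 373 had several and 15203 none listed) were reduced to the brightest cluster of each gene, 10912 in all.

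Groups came from the sample titles. One limma model (version 3.58.1, R 4.3.3) of 4 group means, with 20 residual degrees of freedom, gave 7 comparisons: the 2 associations (on CON, on MCT and pooled), the 2 diets (in CA, in SA and pooled), and the difference of differences. Benjamini-Hochberg adjustment ran over 10912 genes. The model was run on simulated data with added changes larger than any difference given here. That run therefore says nothing about detection at the sizes reported. Tables and figures were made in Python 3.11.15.

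The 7 members, the list of 57 proteasome genes and the 8 marker lists were chosen with earlier results of these data known. Genes named besides the members were the 3 with the lowest and the 3 with the highest moderated statistic among the other proteasome genes, for CA against SA and for MCT against CON, the immunoproteasome genes and regulators of the list, and the 3 most correlated with each member; the remaining core and cap subunits, PSMA3, PSMA6, PSMB4, PSMB7 and SEM1, and RNF5 were added after their values were seen. Alternatives were averaging of clusters, a filter on the dimmest 40% of clusters, a constant of 16 added before log2, renewed quantile normalization, array weights, an intensity trend, only the arrays compared, every named cluster, leaving out pigs 4, 10 and 22, and leaving out each piglet. Each piglet is 1 replicate. Litters were balanced over groups in the study's methods but are not given per piglet, so p-values take the piglets as independent.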

Additional observations from a re-analysis of the deposited data

Results flagged for a closer look

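In 32 sets of 6 piglets (8 clusters by 4 groups), 4 had an end piglet whose gap to its neighbour was large against the range of the group, where chance gives about 1 in 20 sets. In PSMA4 pig 22 was lowest in SA MCT, its gap being 0.655 of the range. In PSMB5 pig 10 was lowest in CA MCT (0.856 of the range), and in the second PSMA5 cluster the same pig was highest in CA MCT (0.69). In PSMB6 pig 12 was highest in CA MCT (0.746). Pigs 10 and 22 are among the 3 whose arrays correlated least with the rest, and pig 12 is not.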

How the results depend on the processing

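Of 1824 recomputed differences of the members and of the median of the other proteasome genes, 66 turned sign, in 16 of 56 results. With array weights 1 gene passed for CA against SA over both diets, RNF5, which is no proteasome gene, and 1 for CA MCT against SA MCT, where the main model had 0. Leaving out single piglets gave 0 to 1 genes for CA MCT against SA MCT, the 1 being without pig 22. In both cases this gene was PSMA4, which was chosen for such a difference, so the call is no test of it. The median of the 24 other proteasome genes ranged from -0.076 to -0.013 on CON (-0.013 without pig 18) and from -0.036 to 0.030 for the difference of differences when single piglets were left out. Over diet, PSMB5 turned to 0.0048 without pigs 4, 10 and 22, and PSMC6 ranged from -0.025 to 0.027, turning when any 1 of 7 piglets was left out. Averaging both clusters turned PSMA5 to 0.05 over both diets, 0.02 on CON and 0.09 on MCT. No paired analysis was possible because each piglet has its own number, which no other group shares. Differences of about 0.1 were of the size of their SE on 1 diet, and the second PSMA5 cluster was too dim to give a direction.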
